A study of Mus musculus with 10 samples.

Results

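Chemokines and chemokine receptors were taken from the array table by symbol: every probe set whose platform gene symbol begins with Ccl, Ccr, Cxcl, Cxcr, Cx3cl, Cx3cr, Xcl, Xcr or Ackr and goes on with a digit. This gave 61 probe sets for 60 genes, out of 22206 probe sets for 19505 named genes. They are 23 CC ligands, 13 CXC ligands, 2 ligands of the CX3C and XC classes, 18 signalling receptors and 4 atypical receptors. Ccl21b alone had more than 1 probe set, and the brighter by its mean over the 10 arrays was used. Ccl21b and Ccl21c, near-identical copies, had the same value on every array, so the 60 genes rest on 59 series of values, and signal of the Ccl21a, Ccl21b and Ccl21c copies may not be separable.

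The arrays measured total RNA of Wolffian ducts, the embryonic tubes that give rise to the epididymis and vas deferens, taken out of mouse embryos of 16.5 days post-coitum, then kept for 72 h at an air-liquid interface. The 3 vehicle cultures received culture medium, the 4 SAG cultures received 0.5 µM of this agonist of Smoothened, the membrane protein that switches on hedgehog signalling, and the 3 cyclopamine cultures received 25 µM of this Smoothened inhibitor. All groups share the age and the culture, strain and sex were not given in the sources used here, and the sample titles carry the word pronephros where the protocols describe Wolffian ducts. Nothing in the labels says whether a sample held the ducts of 1 embryo or a pool, and the series calls the samples biological replicates.

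Chemokines are small secreted proteins that steer migrating cells, and their classes are named after the spacing of the first cysteines. Inflammatory chemokines such as the monocyte-attracting CC ligands and the neutrophil-attracting CXC ligands are induced in activated macrophages, stroma and epithelium, in large part through the transcription factor NF-kappaB. Homeostatic ones such as Cxcl12 are made steadily by stroma. Signalling receptors couple to inhibitory G proteins and sit largely on leukocytes, while atypical receptors bind chemokines without that coupling and remove or redistribute them.

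Signals are the deposited values, log2 array signals (2.95 to 18.7), so that 1 unit is a doubling, and a level of one probe set is not comparable with that of another. The SD over arrays follows ± for group means. Differences are from a limma fit to all 10 arrays, with the moderated standard error (SE) after ±, and a call means a Benjamini-Hochberg adjusted p under 0.05 over all 22206 probe sets. Of the 60 genes, 42 had a mean above the lower quartile of all probe set means (5.19), 18 lay at or below it, and 20 lay at or above the median (7.62). All 60 were tested with no filter.

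The labels held up at hedgehog target genes: Gli1 lay between 11.43 and 12.63 with vehicle, 13.24 and 13.61 with SAG and 4.56 and 5.37 with cyclopamine, and Ptch1 and Hhip passed in the same directions. Markers of duct epithelium (14 of 16 listed genes measured) and of mesenchyme and smooth muscle (14 of 15) were all above the lower quartile. Of 15 macrophage and monocyte markers measured, 0 lay below it, against 7 of 10 for T and NK cells, 5 of 9 for neutrophils and 4 of 6 for B cells. In RNA of a whole culture, fewer cells of a type and less RNA per cell cannot be told apart. The mean log2 signal over 9 endothelial markers was 9.19, 7.75 and 8.38 on cyclopamine replicates 1, 2 and 3. It was 8.80 to 9.73 with vehicle and 9.37 to 9.83 with SAG.

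Promoter sequence was available for 45 of the 60 genes. In the 250 bases before the RefSeq start (assembly GRCm38.p6), the NF-kappaB consensus of 10 bases occurred on either strand in 11 of 49 windows of these genes (22.4%) and in 7.25% of all 32851 windows. The genes were Ackr2, Ccl1, Ccl20, Ccl9, Ccr1, Ccr3, Ccr6, Cxcl1, Cxcl10, Cxcl2 and Cxcl3. The AP-1 motif TGANTCA was in 5 of the 49 windows (10.2%) and 6.75% of all, the interferon-response motif, a pair of GAAA repeats with 2 free bases between them, in 3 (6.12%) and 2.98% of all, and the PU.1 motif GAGGAAGT in 1 (2.04%) and 2.44% of all. The GLI motif GACCACCCA was in 0 of the 49 windows and 0.225% of all. A match describes letters and is neither a binding site nor a cause. The windows below are those of Cxcl1, Cxcl2 and Cxcl3, which had 1 array in common that stood apart, and of Ccl9 and Ccl3, which passed with cyclopamine and differ in these motifs. Each is written 5′ to 3′ on the strand of its gene, and capitals mark the NF-kappaB consensus and, in Ccl9 only, also TGANTCA, the first of its capital runs.
Cxcl1, chr5:90890995-90891244, plus strand: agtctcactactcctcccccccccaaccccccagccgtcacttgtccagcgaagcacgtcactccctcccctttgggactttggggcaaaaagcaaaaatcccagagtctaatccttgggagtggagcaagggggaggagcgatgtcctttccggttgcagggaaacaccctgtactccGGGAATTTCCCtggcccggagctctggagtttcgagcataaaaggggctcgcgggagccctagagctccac
Cxcl2, chr5:90903649-90903898, plus strand: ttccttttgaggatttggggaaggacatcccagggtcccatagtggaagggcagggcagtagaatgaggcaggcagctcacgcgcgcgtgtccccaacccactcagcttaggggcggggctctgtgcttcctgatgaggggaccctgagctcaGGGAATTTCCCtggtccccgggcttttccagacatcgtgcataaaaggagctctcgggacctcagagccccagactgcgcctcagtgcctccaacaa
Cxcl3, chr5:90785851-90786100, plus strand: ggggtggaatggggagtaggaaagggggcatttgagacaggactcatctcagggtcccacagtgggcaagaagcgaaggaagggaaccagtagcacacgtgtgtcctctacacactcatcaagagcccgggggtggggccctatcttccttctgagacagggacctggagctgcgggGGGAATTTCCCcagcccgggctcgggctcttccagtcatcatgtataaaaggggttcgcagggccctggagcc
Ccl9, chr11:83578637-83578886, minus strand: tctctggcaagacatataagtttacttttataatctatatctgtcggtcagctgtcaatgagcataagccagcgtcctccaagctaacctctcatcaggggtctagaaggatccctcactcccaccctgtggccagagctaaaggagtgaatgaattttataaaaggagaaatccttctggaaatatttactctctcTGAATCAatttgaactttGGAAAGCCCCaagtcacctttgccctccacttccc
Ccl3, chr11:83649379-83649628, minus strand: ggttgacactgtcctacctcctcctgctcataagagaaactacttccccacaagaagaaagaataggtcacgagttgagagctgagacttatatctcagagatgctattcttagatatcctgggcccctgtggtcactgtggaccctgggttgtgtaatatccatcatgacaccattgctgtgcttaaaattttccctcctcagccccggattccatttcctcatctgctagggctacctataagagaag
The capitals of Cxcl1, Cxcl2 and Cxcl3 spell the same run, in which the consensus matches on both strands, 1 base apart. It begins 71, 97 and 73 bases before the start. In Ccl9 the consensus lies on the opposite strand, 35 to 26 bases before the start, and TGANTCA, which reads the same on both strands, 53 to 47 bases before it. Ccl3 held none of the 5 motifs in this window.

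Across the family, cyclopamine raised 4 genes against vehicle, all CC ligands: Ccl9, Ccl3, Ccl6 and Ccl8. None fell and 56 did not pass. That is 6.67% of the family called higher, beside 2.17% of all probe sets called higher and 2.95% called lower (5.12% called in all). With SAG against vehicle 0 of 60 genes passed limma, beside 0.730% of all probe sets (0.450% higher and 0.279% lower), and 9 had an unadjusted p under 0.05. Between the compounds, 11 of 60 differed (18.3%, beside 11.3% of all probe sets): 4 higher with SAG (6.67%, beside 5.42%) and 7 lower (11.7%, beside 5.92%). The median log2 difference over the 60 genes was 0.00 with SAG against vehicle, 0.12 with cyclopamine against vehicle and -0.03 between the compounds, beside 0.01, 0.02 and 0.01 over all probe sets. Arrays of the groups did not overlap for 8 genes with SAG against vehicle (13.3%, beside 12.9% of all probe sets), 11 with cyclopamine against vehicle (18.3%, beside 23.1%) and 12 between the compounds (20.0%, beside 21.2%), so by this measure the family's shares were near or below the background. The comparisons share arrays, so their calls are not independent.

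**Figure D1:**
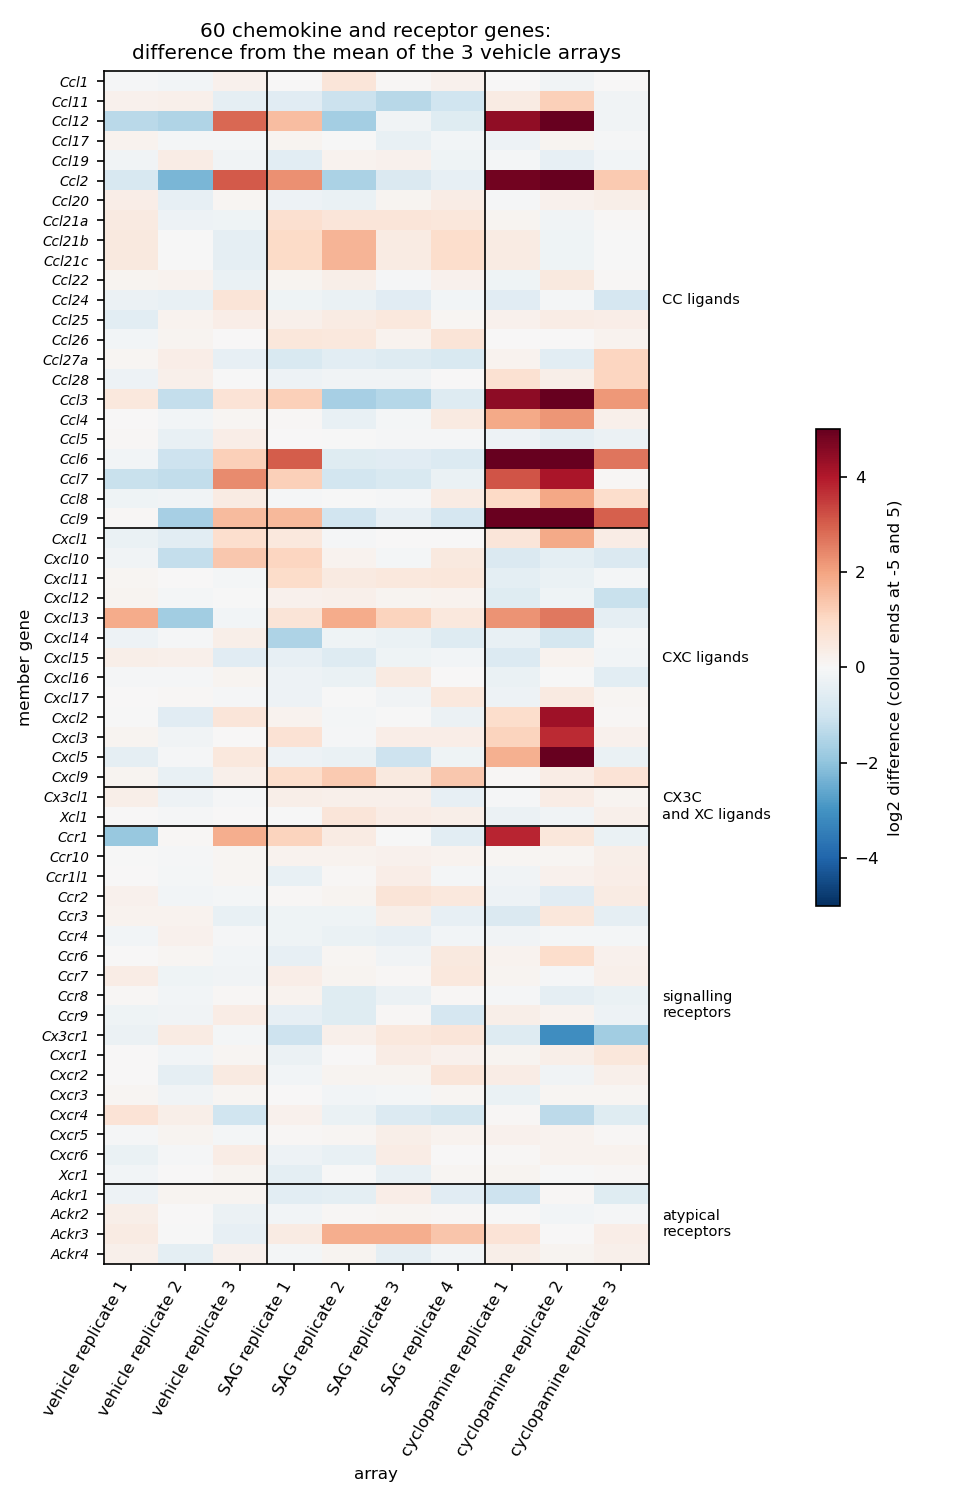
Each row is 1 of the 60 genes, grouped by class, and each column 1 array; colour is the log2 signal minus the mean of the 3 vehicle arrays, with the scale ending at -5 and 5. The dark red cells lie among the CC ligands on cyclopamine replicates 1 and 2, at Cxcl2, Cxcl3 and Cxcl5 on cyclopamine replicate 2 and at Ccr1 on cyclopamine replicate 1.

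Ccl6, Ccl9 and Ccl3, which rose with cyclopamine, are neighbours. In the RefSeq gene table Ccl5, Ccl9, Ccl6, Ccl3 and Ccl4 follow each other on chromosome 11 with at most 2 other protein-coding genes between neighbours. Of these 5 genes 3 were called with cyclopamine against vehicle and 4 between the compounds, beside 5.12% and 11.3% of all probe sets. It is 1 of 10 such groups of members, which hold 36 genes, and is shown because it holds calls. The group of Ccl2 to Ccl1 had 1 and 2 calls in the same comparisons. Ccl19 with Ccl21a and Cx3cr1 with Ccr8 had 0 and 1 each, and the other groups had 0 in both.

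Ccl3, macrophage inflammatory protein 1 alpha, lay at 11.10, 9.36 and 11.24 on the vehicle arrays, 11.75, 8.91, 9.13 and 9.91 on the SAG arrays and 15.04, 16.32 and 12.75 on the cyclopamine arrays. Every cyclopamine array was above every other array, and SAG replicate 1 was the highest of the rest. The difference of cyclopamine from vehicle was 4.13 ± 0.93, 17.6-fold (limma adjusted p = 0.0311), and that of SAG from cyclopamine -4.78 ± 0.87 (limma adjusted p = 0.00503). The call against vehicle was lost on leaving out any vehicle array (adjusted p = 0.0753, 0.112 and 0.0600 for replicates 1, 2 and 3), cyclopamine replicate 1 (0.0827) or cyclopamine replicate 2 (0.0608), while the call between the compounds held with any 1 array left out.

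Ccl9, a CC ligand of rodents that binds Ccr1, had log2 signals of 10.23, 8.49 and 11.74 on the vehicle arrays, 11.78, 9.18, 9.73 and 9.32 on the SAG arrays and 15.08, 15.12 and 13.15 on the cyclopamine arrays. Here too the 3 cyclopamine arrays were the highest of the 10, and vehicle replicate 3 and SAG replicate 1 came next. Ccl9 was 19.7-fold higher than with vehicle (4.30 ± 0.88, limma adjusted p = 0.0207) and differed between SAG and cyclopamine by -4.45 ± 0.82 (limma adjusted p = 0.00542). When vehicle replicate 1 (adjusted p = 0.0707), vehicle replicate 2 (0.0673) or cyclopamine replicate 1 (0.0662) was left out, the call against vehicle ended, and no left-out array ended the other.

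Ccl6, also a rodent CC ligand of myeloid cells, lay at 8.54, 7.64 and 9.89 on the vehicle arrays, 11.73, 8.07, 8.13 and 7.99 on the SAG arrays and 14.80, 14.77 and 11.36 on the cyclopamine arrays. The cyclopamine and vehicle arrays did not overlap, but SAG replicate 1 exceeded cyclopamine replicate 3 and stood far above the other SAG arrays. The rise was 4.96 ± 1.14, 31.1-fold (limma adjusted p = 0.0334), and SAG was lower than cyclopamine by 4.66 ± 1.06 (limma adjusted p = 0.0162). The first call ended when any vehicle array (adjusted p = 0.104, 0.117 and 0.0502 for replicates 1, 2 and 3), cyclopamine replicate 1 (0.10) or cyclopamine replicate 2 (0.0698) was removed, and the second when cyclopamine replicate 1 was (0.0687).

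Ccl4, macrophage inflammatory protein 1 beta and the neighbour of Ccl3, lay at 7.46, 7.27 and 7.53 on the vehicle arrays, 7.47, 7.04, 7.33 and 7.86 on the SAG arrays and 9.31, 9.61 and 7.69 on the cyclopamine arrays. Cyclopamine replicates 1 and 2 were the highest arrays, whereas cyclopamine replicate 3 lay just above the vehicle arrays and below SAG replicate 4. Against vehicle the difference of 1.45 ± 0.41 did not pass (limma adjusted p = 0.0732), and without cyclopamine replicate 3 it was 2.04 (adjusted p = 0.00244). Between the compounds Ccl4 passed (-1.45 ± 0.38, limma adjusted p = 0.0333), a call that any of 6 single arrays decided: vehicle replicate 1, SAG replicates 1 to 3 and cyclopamine replicates 1 and 2 (adjusted p between 0.0517 and 0.126 with one of them left out). The fifth gene of the group, Ccl5, stayed between 3.74 and 4.50 on all 10 arrays, at the lower end of the signal.

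A second chromosome 11 group holds, in order, Ccl2, Ccl7, Ccl11, Ccl12, Ccl8 and Ccl1. Its monocyte attractants varied widely between arrays of each group. Ccl2, monocyte chemoattractant protein 1, lay at 7.75, 6.26 and 11.59 on the vehicle arrays, 10.81, 6.97, 7.83 and 8.13 on the SAG arrays and 13.36, 14.21 and 9.84 on the cyclopamine arrays. Vehicle replicate 3 and SAG replicate 1 were above cyclopamine replicate 3, so the groups overlapped. The difference of cyclopamine from vehicle, 3.94 ± 1.46, did not pass (limma adjusted p = 0.17; 95% interval 0.71 to 7.17). Nor did that of SAG from cyclopamine (-4.04 ± 1.37, limma adjusted p = 0.0912), which passed without vehicle replicate 3 (0.0454) or cyclopamine replicate 3 (-5.35, adjusted p = 0.0396).

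Ccl12, a mouse ligand of the same receptor, had log2 signals of 7.64, 7.48 and 11.85 on the vehicle arrays, 10.52, 7.28, 8.83 and 8.39 on the SAG arrays and 13.43, 14.01 and 8.83 on the cyclopamine arrays. Ccl7 lay at 6.93, 6.80 and 10.39 on the vehicle arrays, 9.21, 7.11, 7.28 and 7.72 on the SAG arrays and 11.17, 12.13 and 8.08 on the cyclopamine arrays. For both, the same 2 arrays as for Ccl2 were high outside the cyclopamine group: vehicle replicate 3 and SAG replicate 1. Neither passed against vehicle (3.10 ± 1.46 for Ccl12, limma adjusted p = 0.284; 2.42 ± 1.12 for Ccl7, limma adjusted p = 0.278). Between the compounds they passed only where cyclopamine replicate 3 was left out (-4.96, adjusted p = 0.0302 and -3.82, adjusted p = 0.0362).

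Ccl8, monocyte chemoattractant protein 2, was the member of this group that rose with cyclopamine. Its log2 signals were 4.49, 4.52 and 5.12 on the vehicle arrays, 4.66, 4.69, 4.66 and 5.13 on the SAG arrays and 5.71, 6.65 and 5.60 on the cyclopamine arrays. All cyclopamine arrays were above all others, with replicate 2 the highest. The difference was 1.28 ± 0.28, 2.43-fold (limma adjusted p = 0.027), and -1.20 ± 0.26 for SAG against cyclopamine (limma adjusted p = 0.013). The means with vehicle (4.71) and SAG (4.79) were below the lower quartile. Removing vehicle replicate 1 (adjusted p = 0.103) or vehicle replicate 2 (0.0981) ended the call against vehicle.

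**Figure D2:**
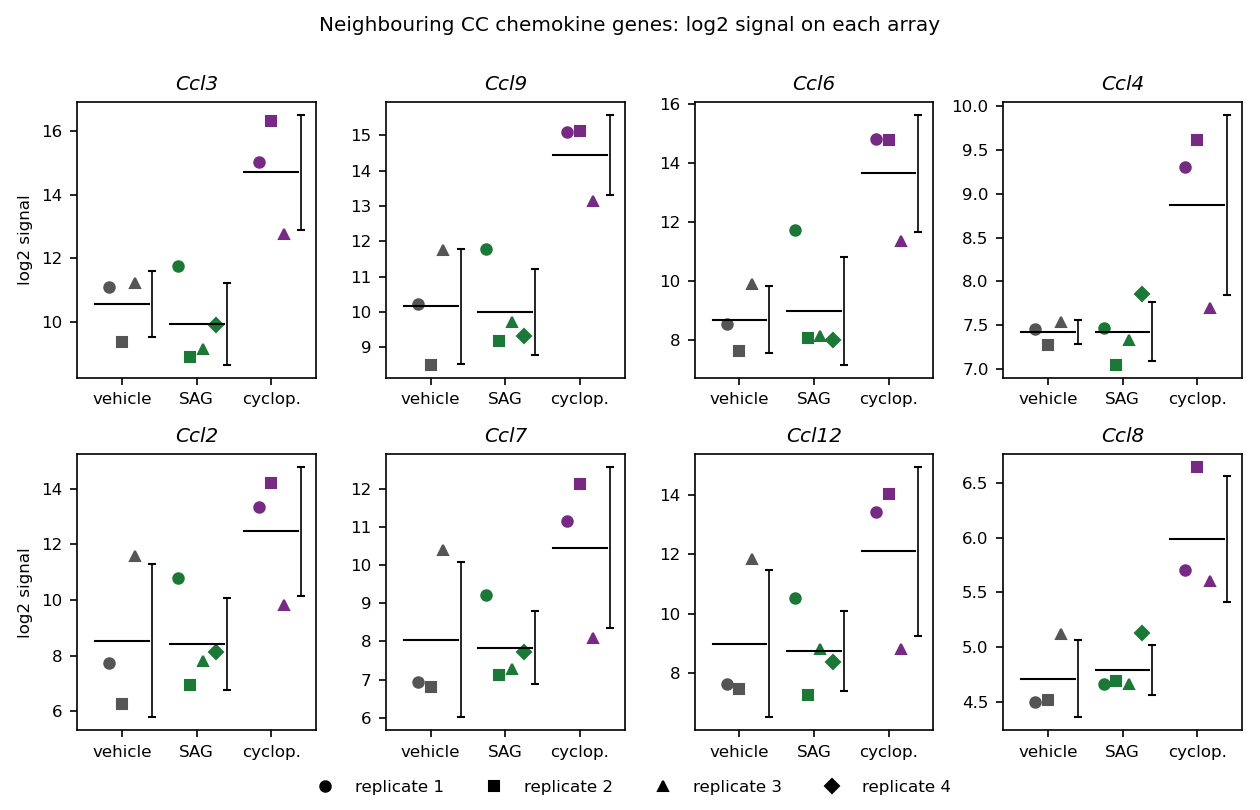
Log2 signal (vertical axes, which differ between panels) of 8 CC ligands from the 2 chromosome 11 groups by treatment; symbols mark replicate numbers, horizontal lines the group mean, and error bars beside them 1 SD. Cyclopamine arrays are the highest for Ccl3, Ccl9 and Ccl8, and for Ccl2, Ccl7 and Ccl12 vehicle replicate 3 and SAG replicate 1 lie above cyclopamine replicate 3.

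Receptors for these ligands did not pass in any comparison. Ccr1, which binds Ccl3, Ccl6, Ccl7 and Ccl9, lay at 4.43, 6.38 and 8.14 on the vehicle arrays, 7.43, 6.74, 6.30 and 5.78 on the SAG arrays and 10.14, 6.90 and 5.97 on the cyclopamine arrays. Cyclopamine replicate 1 was the highest array and vehicle replicate 3 the next, and replicates within a group spread widely. The difference of cyclopamine from vehicle was 1.35 ± 1.06 (limma adjusted p = 0.544; 95% interval -0.99 to 3.70). Ccr2, the receptor for Ccl2, Ccl7 and Ccl12, lay between 4.37 and 5.58 on all arrays, at or near the lower quartile.

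The neutrophil-attracting ligands Cxcl5, Cxcl3, Cxcl1 and Cxcl2 lie together with Cxcl15 on chromosome 5, and 1 array set them apart. Cxcl5 lay at 4.15, 4.51 and 5.10 on the vehicle arrays, 4.32, 4.24, 3.54 and 4.36 on the SAG arrays and 6.37, 11.11 and 4.27 on the cyclopamine arrays. Cxcl2 lay at 5.53, 5.0 and 6.15 on the vehicle arrays, 5.74, 5.46, 5.56 and 5.28 on the SAG arrays and 6.44, 9.81 and 5.63 on the cyclopamine arrays. Cyclopamine replicate 2 was the highest of all 10 arrays for both, cyclopamine replicate 1 the next, and cyclopamine replicate 3 was inside the range of the vehicle arrays. Cxcl3 lay at 6.38, 6.08 and 6.25 on the vehicle arrays, 6.95, 6.20, 6.56 and 6.56 on the SAG arrays and 7.36, 9.95 and 6.47 on the cyclopamine arrays, again with replicates 2 and 1 of the cyclopamine group highest and with replicate 3 above the vehicle arrays and below 3 SAG arrays. Cxcl1, which the rule for named genes did not pick and which was added for its place in the group, lay at 5.54, 5.35 and 6.69 on the vehicle arrays, 6.38, 5.79, 5.89 and 5.89 on the SAG arrays and 6.44, 7.77 and 6.24 on the cyclopamine arrays. It was highest on cyclopamine replicate 2, and vehicle replicate 3 was second.

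None of the 4 genes passed in any comparison. For cyclopamine against vehicle the differences were 2.67 ± 1.26 for Cxcl5, 1.73 ± 0.82 for Cxcl2, 1.69 ± 0.66 for Cxcl3 and 0.96 ± 0.42 for Cxcl1 (limma adjusted p 0.196 to 0.288). Without cyclopamine replicate 2 the Cxcl3 difference was 0.67. Cxcl5 against SAG (-3.14 ± 1.18, limma adjusted p = 0.129) fell in size to -1.21 without cyclopamine replicate 2, and without cyclopamine replicate 3 it was -4.63 (adjusted p = 0.0181). Their receptor Cxcr2 lay between 4.82 and 5.85 on all arrays, with cyclopamine replicate 2 at 5.08. Of 9 neutrophil markers measured, 0 passed in any comparison. Of all probe sets, 0.730% passed with SAG against vehicle, 5.12% with cyclopamine against vehicle and 11.3% between the compounds. The mean log2 signal over the 9 markers was 5.02 on cyclopamine replicate 2, against 4.70 to 5.75 on the other arrays. The granule and alarmin genes Camp, Ltf, Ngp, Retnlg and S100a8 were below the lower quartile, and Csf3r, Elane, Mpo and S100a9 above it. The highest mean, 5.75, was on SAG replicate 3. Mpo (8.94), Elane (7.07), Csf3r (7.05) and S100a9 (6.28) each had their highest value there.

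**Figure D3:**
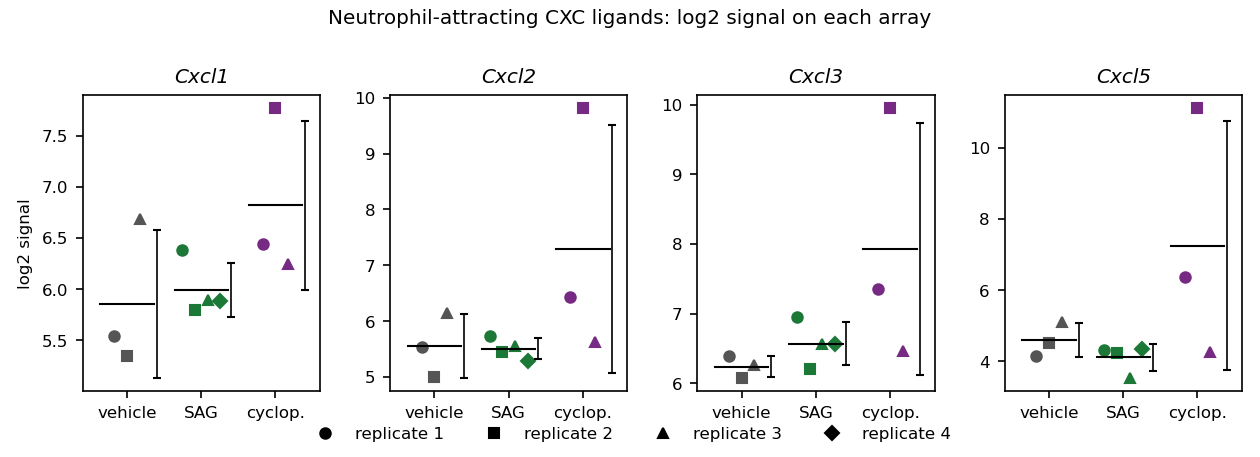
Log2 signal (vertical axes, which differ between panels) of Cxcl1, Cxcl2, Cxcl3 and Cxcl5 by treatment; symbols mark replicate numbers, lines the group mean and error bars 1 SD. Cyclopamine replicate 2 is the highest array in each panel, at 7.77, 9.81, 9.95 and 11.11.

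Cxcl12 was higher with SAG than with cyclopamine, the opposite order to the myeloid CC ligands. Cxcl12, stromal cell-derived factor 1, lay at 16.35, 16.12 and 16.19 on the vehicle arrays, 16.45, 16.46, 16.36 and 16.40 on the SAG arrays and 15.60, 16.0 and 15.11 on the cyclopamine arrays. The 3 groups did not overlap: all SAG arrays were above all vehicle arrays, and all cyclopamine arrays were below them. SAG replicate 3 (16.36) was barely above vehicle replicate 1 (16.35), and SAG and vehicle arrays did not overlap for 12.9% of all probe sets. SAG differed from cyclopamine by 0.85 ± 0.18, 1.8-fold (limma adjusted p = 0.0123), with any 1 array left out as well. Cyclopamine against vehicle, -0.65 ± 0.20, did not pass (limma adjusted p = 0.0902), passed without cyclopamine replicate 2 (-0.86, adjusted p = 0.0145) and was -0.42 without cyclopamine replicate 3. SAG against vehicle was 0.20 ± 0.18 (limma adjusted p = 0.759). Beside it, mesenchyme and smooth muscle markers had a mean log2 signal of 12.6 to 13.0 with cyclopamine, 14.6 to 14.9 with vehicle and 14.8 with SAG on each array. Of 14 measured, 10 were called lower with cyclopamine than with vehicle, beside 2.95% of all probe sets. The part of these markers in the Cxcl12 difference was not tested.

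Ackr3, the atypical receptor that takes up Cxcl12, lay at 10.17, 9.76 and 9.35 on the vehicle arrays, 10.16, 11.56, 11.59 and 11.13 on the SAG arrays and 10.46, 9.78 and 10.07 on the cyclopamine arrays. SAG replicates 2, 3 and 4 were above all other arrays, whereas SAG replicate 1 was within the vehicle range. The difference from vehicle, 1.35 ± 0.34 or 2.56-fold, did not pass (limma adjusted p = 0.123; 95% interval 0.61 to 2.10). Without SAG replicate 1 it was 1.67 (adjusted p = 0.0200), and SAG against cyclopamine, 1.01 ± 0.34 (limma adjusted p = 0.0874), became 1.32 (adjusted p = 0.00825). Cxcr4, the signalling receptor for Cxcl12, lay at 9.49, 9.07 and 7.81 on the vehicle arrays, 9.0, 8.47, 8.10 and 7.91 on the SAG arrays and 8.86, 7.48 and 8.19 on the cyclopamine arrays, with overlap among all groups and no call.

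Ligands of Cxcr3, the interferon-inducible group, were higher with SAG than with cyclopamine in 1 of 3 cases by the test. Cxcl11 lay at 4.45, 4.40 and 4.26 on the vehicle arrays, 5.29, 4.81, 4.89 and 4.93 on the SAG arrays and 3.89, 4.02 and 4.27 on the cyclopamine arrays. Every SAG array was above every other array. SAG exceeded cyclopamine by 0.92 ± 0.15, 1.89-fold (limma adjusted p = 0.00268), a call that held with any 1 array left out, and exceeded vehicle by 0.61 ± 0.15, which did not pass (limma adjusted p = 0.12). All 3 group means, 4.37, 4.98 and 4.06, were below the lower quartile of probe sets, so the Cxcl11 values are at the dim end of the array.

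Cxcl9 lay at 5.62, 5.09 and 5.72 on the vehicle arrays, 6.36, 6.80, 5.96 and 6.82 on the SAG arrays and 5.55, 5.86 and 6.16 on the cyclopamine arrays. No SAG array fell within the vehicle range, and SAG replicate 3 lay within the cyclopamine range. The difference from vehicle was 1.01 ± 0.25, 2.01-fold, with the smallest adjusted p of the family in that comparison (0.112 by limma), and it did not pass. Cxcl10 lay at 8.58, 7.59 and 10.11 on the vehicle arrays, 9.83, 8.94, 8.65 and 9.24 on the SAG arrays and 8.05, 8.26 and 8.05 on the cyclopamine arrays. Cyclopamine arrays were tight and below the SAG arrays, and vehicle arrays spanned both. SAG against cyclopamine was 1.04 ± 0.48 (limma adjusted p = 0.221) and did not pass. Their receptor Cxcr3 stayed between 6.48 and 6.90.

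Ccl11 and Ccl28 were lower with SAG than with cyclopamine. Ccl11, eotaxin 1, which attracts eosinophils through Ccr3, lay at 10.06, 10.10 and 9.41 on the vehicle arrays, 9.28, 8.78, 8.48 and 8.87 on the SAG arrays and 10.27, 11.03 and 9.67 on the cyclopamine arrays. SAG arrays were the lowest 4 of the 10, and vehicle and cyclopamine arrays overlapped. SAG was below cyclopamine by 1.47 log2 units (-1.47 ± 0.31, a 2.77-fold difference; limma adjusted p = 0.0105), also with any 1 array left out. Against vehicle it gave -1.0 ± 0.31, short of the threshold (limma adjusted p = 0.228). Ccr3 lay between 4.62 and 5.91.

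Ccl28, a mucosal epithelial ligand of Ccr10, lay at 7.76, 8.25 and 7.99 on the vehicle arrays, 7.76, 7.82, 7.82 and 8.02 on the SAG arrays and 8.78, 8.29 and 9.07 on the cyclopamine arrays. The cyclopamine arrays were the highest 3, with replicate 2 just above vehicle replicate 2. The difference of SAG from cyclopamine was -0.86 ± 0.19 (limma adjusted p = 0.0137), which ended without cyclopamine replicate 1 (adjusted p = 0.0507) or 3 (0.0551). Against vehicle 0.71 ± 0.20 did not pass (limma adjusted p = 0.0732) and did without cyclopamine replicate 2 (0.92, adjusted p = 0.0143). Duct epithelium markers had a mean log2 signal of 11.8 to 12.5 with cyclopamine, 10.8 to 11.8 with vehicle and 9.90 to 10.4 with SAG. Of 14 measured, 11 were called lower with SAG than with cyclopamine, beside 5.92% of all probe sets. The part of these markers in the Ccl28 difference was not tested.

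Ccl27a, the other Ccr10 ligand and an epithelial chemokine, lay at 10.41, 10.64 and 9.89 on the vehicle arrays, 9.57, 9.78, 9.66 and 9.57 on the SAG arrays and 10.49, 9.77 and 11.37 on the cyclopamine arrays. SAG arrays were below all vehicle arrays, and cyclopamine replicate 2 was within the SAG range. SAG against cyclopamine was -0.90 ± 0.31 (limma adjusted p = 0.101), -1.29 without cyclopamine replicate 2 (adjusted p = 0.00901) and -0.48 without cyclopamine replicate 3. Ccr10 itself lay between 4.22 and 4.56, below the lower quartile. Ccl25, a ligand of Ccr9, ranged from 7.60 to 8.65 with overlap among all groups.

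Ccl21a, a lymphatic ligand of Ccr7, lay at 7.82, 7.12 and 7.16 on the vehicle arrays, 8.17, 7.99, 7.97 and 7.96 on the SAG arrays and 7.53, 7.18 and 7.44 on the cyclopamine arrays. SAG arrays were above all others and close together, with vehicle replicate 1 the nearest. SAG exceeded cyclopamine by 0.63 ± 0.18 (limma adjusted p = 0.0443), and that call ended with any array but vehicle replicate 1 or 2 left out (adjusted p 0.0503 to 0.121). Ccl21b and Ccl21c, with 1 series of values, were at 0.93 ± 0.30 in the same comparison and did not pass (limma adjusted p = 0.0781). Ccr7 lay between 7.01 and 7.74 and Ackr4, which removes Ccl21a and Ccl25, between 4.77 and 5.52, with no call.

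**Figure D4:**
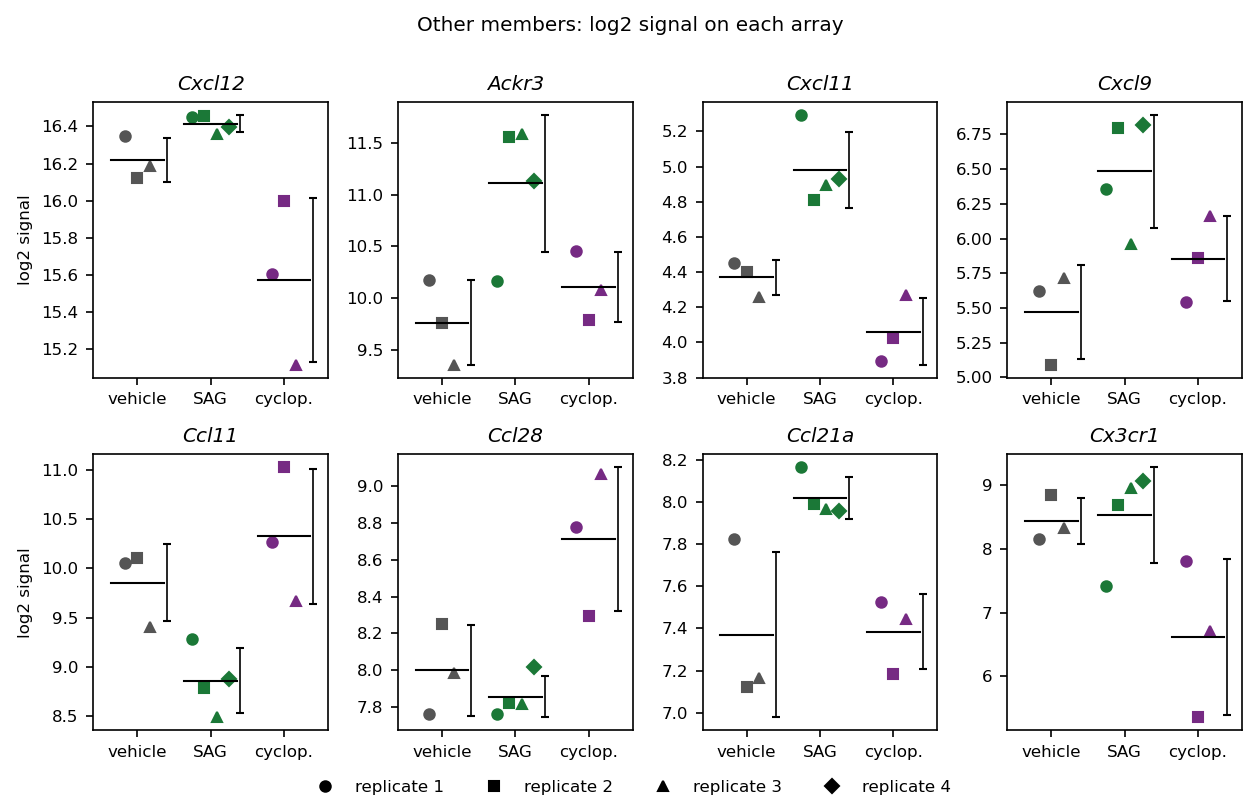
Log2 signal (vertical axes, which differ between panels) of 8 further genes by treatment; symbols mark replicate numbers, lines the group mean and error bars 1 SD. SAG arrays are the highest for Cxcl12, Cxcl11 and Ccl21a and the lowest for Ccl11, and SAG replicate 1 is apart from the other SAG arrays for Ackr3 and Cx3cr1.

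Cx3cr1, the fractalkine receptor of monocytes and tissue macrophages, was the signalling receptor that differed between the compounds, 1 of 18, beside 11.3% of all probe sets. It lay at 8.15, 8.85 and 8.33 on the vehicle arrays, 7.42, 8.68, 8.96 and 9.06 on the SAG arrays and 7.80, 5.35 and 6.70 on the cyclopamine arrays. All cyclopamine arrays were below all vehicle arrays, and SAG replicate 1 was below cyclopamine replicate 1. SAG exceeded cyclopamine by 1.91 ± 0.53, 3.76-fold (limma adjusted p = 0.0419). Leaving out any array other than SAG replicate 1 and cyclopamine replicate 1 ended the call (adjusted p between 0.0558 and 0.107), and in the absence of cyclopamine replicate 2 the difference was 1.28. Cyclopamine against vehicle, -1.82 ± 0.57, did not pass (limma adjusted p = 0.102), passed without cyclopamine replicate 1 (-2.41, adjusted p = 0.0355) and was -1.19 without cyclopamine replicate 2. Its ligand Cx3cl1 stayed between 6.32 and 7.06.

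Macrophage and monocyte markers, measured beside the myeloid ligands and Cx3cr1, were called in part. Of 15 measured, 3 were called higher with cyclopamine than with vehicle and 0 lower, beside 2.17% and 2.95% of all probe sets. Between the compounds 1 was higher and 3 lower with SAG, beside 5.42% and 5.92% of all probe sets. The median log2 difference over the 15 was 0.38 with cyclopamine against vehicle, beside 0.02 over all probe sets. Cd14, the lipopolysaccharide co-receptor, lay at 8.53, 8.78 and 9.43 with vehicle, 8.96, 8.72, 9.32 and 8.81 with SAG and 10.96, 12.27 and 10.5 with cyclopamine. Its cyclopamine arrays were above all others (cyclopamine against vehicle 2.33 ± 0.40, limma adjusted p = 0.00849), and Itgam, an integrin of myeloid cells (2.70 ± 0.64, limma adjusted p = 0.0369), and Fcer1g, an Fc receptor subunit (1.41 ± 0.28, limma adjusted p = 0.0167), rose as well. Short of the threshold were Tyrobp, a signalling adaptor of myeloid cells (1.53 ± 0.39, limma adjusted p = 0.0513), Lyz2, a lysozyme (1.70 ± 0.49, limma adjusted p = 0.0765), and, with the opposite sign, Aif1, a calcium-binding protein of macrophages (-1.63 ± 0.42, limma adjusted p = 0.0506).

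The complement gene C1qa lay at 9.84, 10.28 and 10.88 with vehicle, 10.75, 10.14, 11.12 and 11.06 with SAG and 11.47, 8.96 and 10.17 with cyclopamine, so cyclopamine replicate 1 was the highest and replicate 2 the lowest of all arrays. Csf1r, the receptor that macrophages depend on, stayed between 10.39 and 11.62, with -0.03 ± 0.26 for cyclopamine against vehicle (limma adjusted p = 0.973). The mean log2 signal over the 15 markers was 9.95 to 10.5 with vehicle, 9.89 to 10.6 with SAG and 10.4 to 11.4 with cyclopamine. On cyclopamine replicate 2, where Ccl3, Ccl2 and Cxcl5 were highest, it was 10.4, within the range of the other groups. The part of macrophage number in the chemokine differences was not tested.

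Among the remaining bright members, Cxcl13, the B cell attractant, ranged within every group: 12.71, 9.10 and 10.70 on the vehicle arrays, 11.48, 12.69, 11.95 and 11.37 on the SAG arrays and 13.07, 13.48 and 10.40 on the cyclopamine arrays. Its lowest array was vehicle replicate 2, and no comparison passed. Cxcl14 lay at 9.33, 9.53 and 9.85 on the vehicle arrays, 8.01, 9.35, 9.25 and 8.91 on the SAG arrays and 9.20, 8.69 and 9.47 on the cyclopamine arrays. SAG replicate 1 was its lowest array, and the difference of SAG from vehicle (-0.69 ± 0.31, limma adjusted p = 0.458) was -0.40 without that array. Cxcl16, a membrane-bound ligand of Cxcr6, stayed between 11.06 and 12.02. The receptors Cxcr5 and Cxcr6 lay below the lower quartile, and Ccr9, Ackr1 and Ackr2 showed no call.

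The other 17 members not named by the rule or added beside them gave no call in any comparison. They are Ccl1, Ccl17, Ccl19, Ccl20, Ccl21c, Ccl22, Ccl24, Ccl5, Ccr1l1, Ccr4, Ccr6, Ccr8, Cxcl15, Cxcl17, Cxcr1, Xcl1 and Xcr1. Their log2 signals lay between 3.42 and 8.38. Ccl26, added here after its values were seen, lay at 5.39, 5.64 and 5.53 on the vehicle arrays, 6.10, 6.06, 5.70 and 6.18 on the SAG arrays and 5.53, 5.53 and 5.68 on the cyclopamine arrays, with all SAG arrays above all others. It was at 0.43 ± 0.14 for SAG against cyclopamine (limma adjusted p = 0.0811).

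Several single arrays stood apart for a larger share of this family than of all probe sets. On cyclopamine replicate 2, 14 of 60 genes (23.3%) lay more than 1 log2 unit above the mean of the other cyclopamine arrays, beside 2.76% of all probe sets. On cyclopamine replicate 3, 12 (20.0%) lay that far below its group, beside 1.84%. Vehicle replicate 3 had 9 genes (15.0%) above, beside 1.00%, and vehicle replicate 2 had 8 (13.3%) below, beside 0.748%. Cyclopamine replicate 1 had 8 (13.3%) above, beside 2.14%, and SAG replicate 2 had 5 (8.33%) below, beside 0.473%. These counts are descriptive, and in a group of 3 a high array also lowers the standing of the others.

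SAG replicate 1 had 7 genes (11.7%) above the other SAG arrays, beside 1.39%, and 5 of them, Ccl12, Ccl2, Ccl3, Ccl6 and Ccl9, by more than 2 units. On the remaining sides the counts were small: above, 2 genes on vehicle replicate 1 (0.793% of all probe sets), 0 on vehicle replicate 2 (0.784%), 1 on SAG replicate 2 (0.540%), 0 on SAG replicate 3 (0.410%), 0 on SAG replicate 4 (0.450%) and 1 on cyclopamine replicate 3 (1.28%). Below, they were 4 on vehicle replicate 1 (0.459%), 1 on vehicle replicate 3 (1.20%), 3 on SAG replicate 1 (1.08%), 2 on SAG replicate 3 (0.464%), 2 on SAG replicate 4 (0.639%), 2 on cyclopamine replicate 1 (1.01%) and 4 on cyclopamine replicate 2 (3.35%).

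Vehicle replicate 3 had 6 genes more than 2 units above its group: Ccl12, Ccl2, Ccl7, Ccl9, Ccr1 and Cxcl10. Cyclopamine replicate 2 had 7 such genes, Ccl12, Ccl2, Ccl3, Ccl7, Cxcl2, Cxcl3 and Cxcl5. Cyclopamine replicate 1 had Ccl12 and Ccr1, and vehicle replicate 1 had Cxcl13. Ccl2 and Ccl12 were thus in this list for vehicle replicate 3, SAG replicate 1 and cyclopamine replicate 2, and Ccl12 also for cyclopamine replicate 1. The longest list lay below: cyclopamine replicate 3 had 10 genes more than 2 units below its group. They were Ccl12, Ccl2, Ccl3, Ccl6, Ccl7, Ccr1, Cxcl13, Cxcl2, Cxcl3 and Cxcl5. Vehicle replicate 2 had 4 below, Ccl12, Ccl2, Ccl9 and Cxcl13, and vehicle replicate 1 had Ccl12 and Ccr1.

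**Figure D5:**
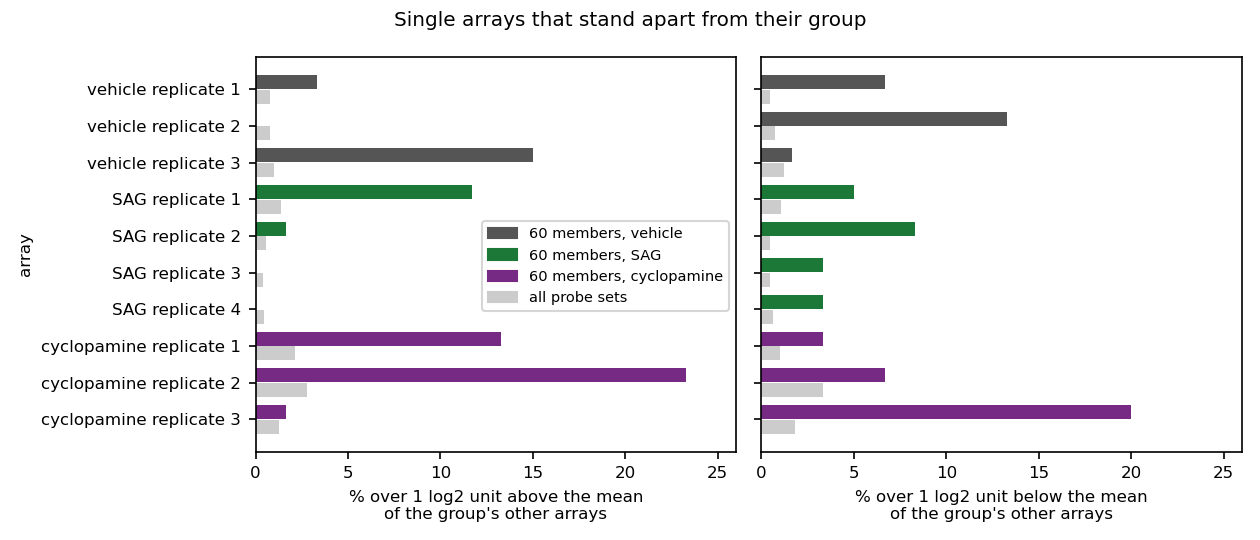
Percent of genes more than 1 log2 unit above (left) or below (right) the mean of the other arrays of the same group, for the 60 chemokine and receptor genes (coloured bars) and all 22206 probe sets (grey bars). The longest bars are cyclopamine replicate 2 above (23.3%) and cyclopamine replicate 3 below (20.0%).

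Genes that induce chemokines showed no call. Of 21 measured inflammatory inducers and NF-kappaB targets, 0 passed limma in any comparison, with a median of 0.04 for SAG and 0.08 for cyclopamine against vehicle. Among all probe sets 0.730% passed with SAG against vehicle, 5.12% with cyclopamine against vehicle and 11.3% between the compounds. Tnf, a cytokine that induces many chemokines, lay at 4.27, 4.69 and 6.39 with vehicle, 5.38, 4.76, 4.59 and 5.46 with SAG and 6.25, 7.67 and 5.20 with cyclopamine. Nfkbia, the inhibitor induced by NF-kappaB, lay at 11.20, 10.89 and 11.31, 10.66, 10.67, 10.75 and 10.66 and 11.45, 12.31 and 10.71 in the same order. Cyclopamine replicate 2 was the highest of the 10 arrays for both, as for the neutrophil-attracting ligands. It was also the highest for Birc3, Ifnb1, Il1a, Il1b, Nfkb2, Nfkbie and Tnfaip3, and for no other measured gene of the list. Lif (5.45), Csf2 (3.96) and Sele (3.78) were lowest there, the last 2 of them with means below the lower quartile. Vehicle replicate 3 was the highest vehicle array for Tnf and Nfkbia. The smallest adjusted p values were those of Ptgs2 for SAG against cyclopamine (1.38 ± 0.43, limma adjusted p = 0.0676) and Vcam1 for SAG against vehicle (-1.37 ± 0.30, limma adjusted p = 0.0740).

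Other genes of chemokine signalling, 31 measured of 36 listed, were called in both directions with cyclopamine against vehicle: 3 higher, 3 lower and 25 not. Of all probe sets, 2.17% were called higher and 2.95% lower. Mmp12, the macrophage elastase that cleaves chemokines (4.92 ± 1.09, limma adjusted p = 0.0286), Rgs1, a regulator of G protein signalling in leukocytes (1.16 ± 0.24, limma adjusted p = 0.0213), and Dock2, a Rac activator of migrating leukocytes (0.88 ± 0.22, limma adjusted p = 0.0449), rose. Gng2 (-1.47 ± 0.24), Gnai1 (-0.82 ± 0.17) and Rgs2 (-1.59 ± 0.40), G protein subunits and a regulator found in many tissues, fell (limma adjusted p 0.00692 to 0.0483). The platelet chemokine Pf4, which the symbol rule does not take, lay at 7.76, 6.81 and 8.0 with vehicle, 8.12, 6.62, 6.90 and 7.12 with SAG and 9.97, 12.47 and 7.63 with cyclopamine, highest on cyclopamine replicate 2, and its difference of 2.5 ± 0.93 from vehicle did not pass (limma adjusted p = 0.173). With SAG against vehicle 0 of the 31 passed, beside 0.730% of all probe sets. Between the compounds 3 were higher and 3 lower with SAG, beside 5.42% and 5.92% of all probe sets.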

How the data were processed

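The members and gene lists were chosen with earlier results of these data known. The deposited values are log2 signals, 1 per probe set and array, and the log2 base was inferred from their range. Array medians were close, at 7.55 to 7.70, but whether the values came normalized between arrays was not stated. Per the labels' protocols, 100 ng of total RNA per sample, with an RNA integrity number of at least 7, was labelled with biotin (GeneChip WT Plus) and hybridized to Affymetrix arrays. Summarization, normalization software, genome build and annotation source were not given in the sources used here. Symbols came from the platform's annotation; all 60 matched the RefSeq table (GRCm38.p6), which gave neighbours and promoters.

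limma 3.58.1 in R 4.3.3 fitted a mean per group to all 22206 probe sets and 10 arrays (lmFit, eBayes; 7 residual and 3.70 prior degrees of freedom), two-sided, adjusted by Benjamini-Hochberg. Scripts were tested on simulated data. The series calls the samples biological replicates, but nothing says that cultures were separate animals. The p-values measure the spread between these samples, which may be technical, and the number of arrays limits precision. Named were genes called in any contrast (11), genes with a mean at or above the median (20), genes with an array over 2 log2 units from the others of its group (12) and receptors or ligands that pair with them (15), 40 in all; Cxcl1, Ccl21b and Ccl26 were added after their values were seen. Alternatives were quantile normalization of the deposited values, median centring, dropping the 25% dimmest probe sets and a fit to the 2 compared groups alone. Others were a prior variance that depends on intensity, array weights, a replicate block, thresholds of 0.01 and 0.1 and the mean over probe sets. Each array was also left out, as was SAG replicate 1 together with cyclopamine replicate 2.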

Additional observations from a re-analysis of the deposited data

Results flagged for a closer look

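In the SAG group, the only one with 4 arrays, 7 of the 40 named genes had 1 array whose gap to the nearest other array took up most of the range of the group (Dixon's test at 95%). Chance marks about 1 group in 20, a rate that cannot be set against this count, because 12 of the 40 genes were named for an array that stood apart in some group. Among the 7 this held for Ccl6, on SAG replicate 1 and cyclopamine replicate 3, and for Cxcl5, on cyclopamine replicates 2 and 3 only. Ccl6 on SAG replicate 1 had the widest gap, 11.73, against 7.99 to 8.13 on the other SAG arrays. Ccl21a was also high there (8.17, against 7.96 to 7.99), and Ackr2 was low (5.36, against 5.56 to 5.59). On SAG replicate 3 Ackr1 was high (7.09, against 6.21 to 6.27) and Cxcl5 low (3.54, against 4.24 to 4.36). SAG replicate 4 was high for Ccl8 (5.13, against 4.66 to 4.69) and low for Cx3cl1 (6.32, against 6.96 to 7.02).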

How the results depend on the processing

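Of 36 differences of named genes with an unadjusted p under 0.05, 15 were called. Under the settings that leave out no single array, 16 values lost and 10 gained a call and 0 changed sign; with 1 array left out, 40 lost and 12 gained a call and 0 changed sign. Of the other named differences, 39 changed sign in some setting, the largest of them 1.11 in size. The number of genes called with cyclopamine against vehicle, 4, was 2 with only those groups fitted, 0 and 7 at thresholds of 0.01 and 0.1, and 0 to 5 with 1 array left out: 0 without vehicle replicate 1 or 2, 2 without vehicle replicate 3 or cyclopamine replicate 1. Between the compounds the 11 calls were 3 at a threshold of 0.01 and 7 to 13 with 1 array left out, 7 without cyclopamine replicate 1. For SAG against vehicle, 0 became 1, Ackr3, with array weights and without SAG replicate 1, alone or together with cyclopamine replicate 2, and the range was 0 to 1 over left-out arrays. With the replicate number as a block there were 0 calls with SAG against vehicle, 1 (Ccl9) with cyclopamine against vehicle and 6 between the compounds. Deviations of same-numbered arrays correlated at -0.193 to 0.237, and 2 of 9 arrays correlated best with their own number. With so few arrays, this cannot tell whether cultures of the same number were paired, and the labels do not say. Without the dimmest 25% of probe sets the called genes Ccl8 and Cxcl11, both at the lower end of the signal, were not tested.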
